A study of Mus musculus with 8 samples.

Results

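The genes described here are 8 members of the membrane-spanning 4A family, Ms4a4b, Ms4a4c, Ms4a4d, Ms4a6b, Ms4a6c, Ms4a6d, Ms4a7 and Ms4a8a, which lie in one cluster on mouse chromosome 19. They were chosen by symbol, with their values in the same comparison of genotypes already known, so their differences are given as a description without a test. All 8 were on the array, among 18193 genes with a probe set of their own, and together they had 15 probe sets. Spleen cells of leukemic mice were profiled on Affymetrix arrays, with 4 arrays per genotype. The full-length group carried CBFb-SMMHC, the fusion of the core-binding factor subunit CBFb with smooth muscle myosin heavy chain that arises in human acute myeloid leukemia with inversion of chromosome 16, and was sampled 2 months after the mutagen ENU. The truncated group carried CBFb-SMMHCd179-221, a form named for a deleted stretch and described by the submitters as defective in high-affinity RUNX1 binding, and was sampled 3 weeks after birth. Genotype, mutagen and age cannot be told apart in this design. Mice of both groups are labelled as chimeras, but the series text calls the full-length mice knock-in, so the share of cells with a fusion is not given in the sources used here. By their titles each group had 2 animals, the first with 1 array and the second with 3, and arrays of one animal may be technical repeats. The series text also speaks of 2 experiments per genotype, and which arrays belong to which is not given in the sources used here.

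MS4A proteins cross the plasma membrane several times and sit beside other receptors, whose signalling they adjust. The founding members are CD20 (Ms4a1) of B cells, the beta chain of the high-affinity IgE receptor (Ms4a2) of mast cells and basophils, and HTm4 (Ms4a3) of myeloid progenitors. The Ms4a6 genes and Ms4a7 are known from monocytes and macrophages, and Ms4a4b is known from T cells, where its protein associates with the costimulatory receptor GITR.

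The arrays did not group by animal alone. In the full-length group, array 1 of animal 2 differed by over 1 log2 unit from the array of animal 1 at 320 probe sets, and from arrays 2 and 3 of its own animal at 3731 and 3853. In the truncated group the same counts were 576, 1751 and 1727. Arrays 2 and 3 of animal 2 differed that much from each other at 3 probe sets in full-length and 4 in truncated mice. Both full-length arrays numbered 1 also stood apart in cell markers. Their mean log2 levels of 7 blast and early myeloid genes were 5.16 and 5.20 against 9.04 to 9.78 in the other 6 arrays, and their means of 8 erythroid genes were 10.89 and 10.77 against 7.78 to 9.24. Whether the titles assign array 1 of animal 2 to the right animal was not tested, and every SD over 2 animals rests on that assignment. Differences are truncated minus full-length over the 2 animals of a genotype. For the 8 genes and the marker lists they are also given over the arrays numbered 1 (1 per animal) and over arrays 2 and 3 of animal 2.

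All 8 genes had a higher mean in truncated animals, with differences from 0.09 for Ms4a4d to 2.18 for Ms4a6d and a median of 1.04 on the log2 scale, against 0.03 over all 18193 genes. The genotypes had no overlapping arrays for 5 of the 8, Ms4a4c, Ms4a6b, Ms4a6c, Ms4a6d and Ms4a7, all higher in truncated mice. Over all genes this held for 7.94% in that direction, and 5.88% lay lower without overlap. The same 5 genes were at least 1 log2 unit higher, as were 4.68% of all genes, while 2.33% were at least 1 unit lower. Nothing is read from these shares, since the choice of the genes used the same values. The median over the 8 genes was 0.66 in the arrays numbered 1 and 1.71 in arrays 2 and 3 of animal 2. The genes fell into groups. The Ms4a6 genes and Ms4a7 were higher in all 4 truncated arrays than in any full-length array, and Ms4a4b and Ms4a4c stood out in a pair of truncated arrays. The genotypes overlapped for Ms4a4d and Ms4a8a, which had no such pair, and also for Ms4a4b.

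**Figure D1:**
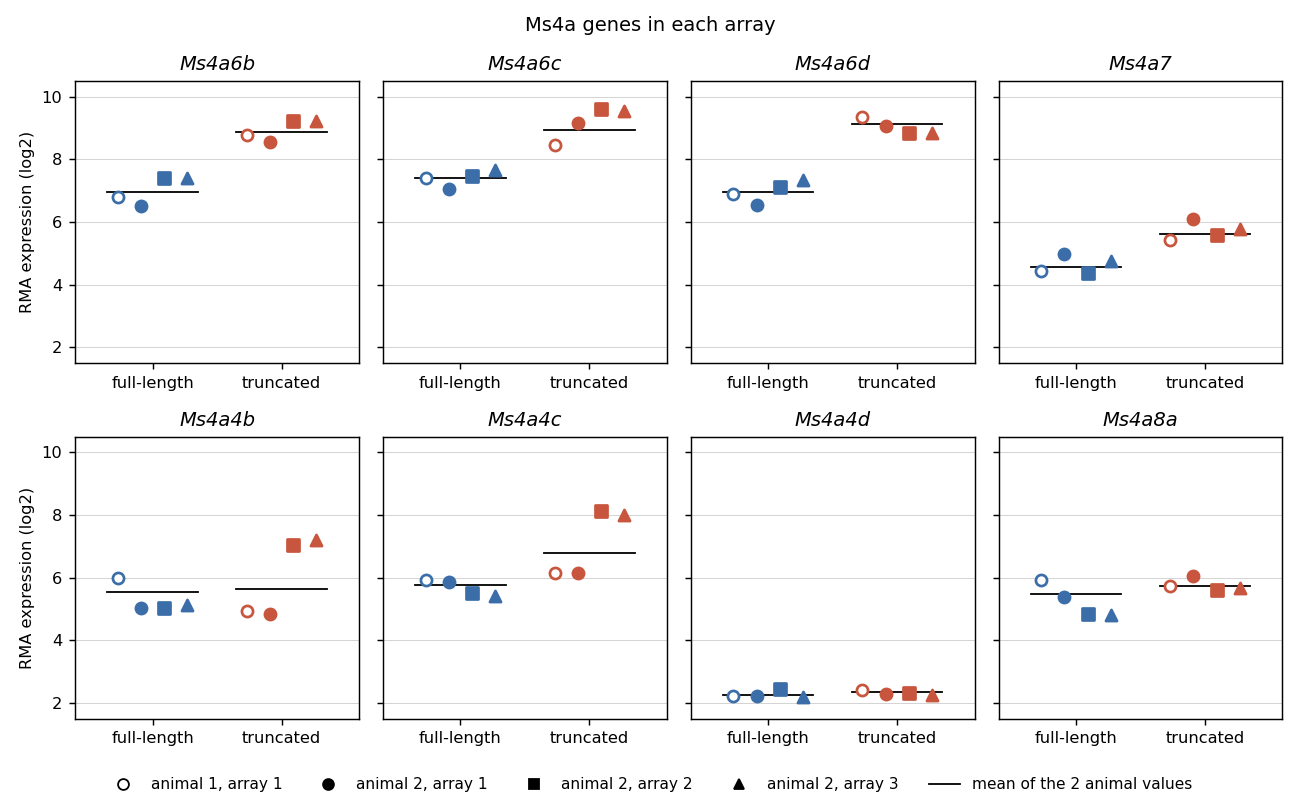
Log2 RMA expression (vertical axis) of the 8 genes in every array, by genotype; symbols give the animal and array, and lines the mean of the 2 animal values. Points of the genotypes are separate for Ms4a6b, Ms4a6c, Ms4a6d, Ms4a7 and, by 0.22, Ms4a4c; Ms4a4b and Ms4a4c lie above 7 only in arrays 2 and 3 of truncated animal 2.

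Ms4a6d, a macrophage gene, had the largest difference of the 8. By its brightest probe set, 1419599_s_at, it was at 6.89 in the array of full-length animal 1 and at 6.55, 7.12 and 7.35 in the arrays of full-length animal 2. In truncated mice it was at 9.36 in animal 1 and at 9.06, 8.84 and 8.83 in animal 2. All 4 truncated arrays lay above all 4 full-length arrays, with 1.48 between the nearest. The means were 6.95 ± 0.082 and 9.13 ± 0.32 (log2, SD, n = 2 animals each), 4.54-fold apart. The difference was 2.49 in the arrays numbered 1 and 1.59 in arrays 2 and 3. A probe set of this type can match related sequences, but 1419598_at of the same gene gave a like picture, with full-length arrays between 5.73 and 6.67, truncated arrays between 8.08 and 8.51, and a difference of 2.05. The remaining probe set, 1449539_at, stayed between 2.03 and 2.26 in all arrays and showed no such gap.

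Ms4a6b was at 6.79 in full-length animal 1 and at 6.52, 7.40 and 7.42 in full-length animal 2. It was at 8.77 in truncated animal 1 and at 8.54, 9.24 and 9.22 in truncated animal 2. Arrays 2 and 3 were the highest in both genotypes, and the genotypes remained 1.13 apart at their nearest arrays. The means were 6.95 ± 0.23 and 8.88 ± 0.16 (log2, SD, n = 2 animals each), a 3.81-fold difference. Of the Ms4a6 genes it varied least between these sets of arrays, with a difference of 2.00 in the arrays numbered 1 and 1.82 in arrays 2 and 3. Without both full-length arrays numbered 1 its difference was 1.48. Its dimmer probe set, 1439956_at, differed by 0.69 with overlapping arrays (3.05 to 3.82 and 3.37 to 4.93).

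Ms4a6c was at 7.39 in full-length animal 1 and at 7.06, 7.46 and 7.66 in full-length animal 2. It was at 8.47 in truncated animal 1 and at 9.16, 9.60 and 9.55 in truncated animal 2. The lowest truncated array was that of animal 1, which lay 0.81 above the highest full-length array. The means were 7.39 ± 0.00088 and 8.95 ± 0.69 (log2, SD, n = 2 animals each), a 2.95-fold difference. The full-length SD is that small because the arrays of animal 2 averaged to the value of animal 1. The difference was 1.58 in the arrays numbered 1 and 2.02 in arrays 2 and 3. A dimmer probe set, 1457725_at, differed by -0.05 with overlapping arrays.

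The values of Ms4a6b and Ms4a6c followed each other over the 8 arrays (Pearson r = 0.96, as a description). Ms4a6b with Ms4a6d gave 0.94 and Ms4a6c with Ms4a6d 0.88, and these arrays share animals and genotypes. The RefSeq promoter windows of the former 2 genes, 250 bases before to 50 after the start in GRCm38.p6, are shown because they share a long stretch of sequence. Of 170 pairs of windows between 18 Ms4a genes, this pair had the longest identical run, 48 bases, and a local alignment of 234 columns with 193 identical bases (82.5%). The next pair is Ms4a4b with Ms4a4c, and the other 168 pairs shared runs of at most 13 bases and at most 29 identical bases in a local alignment. The capitals mark the 48 identical bases, which begin 49 bases before the start of Ms4a6c and 118 before that of Ms4a6b. The windows are chr19:11469118-11469417 and chr19:11518309-11518608, both on the plus strand.
Ms4a6c: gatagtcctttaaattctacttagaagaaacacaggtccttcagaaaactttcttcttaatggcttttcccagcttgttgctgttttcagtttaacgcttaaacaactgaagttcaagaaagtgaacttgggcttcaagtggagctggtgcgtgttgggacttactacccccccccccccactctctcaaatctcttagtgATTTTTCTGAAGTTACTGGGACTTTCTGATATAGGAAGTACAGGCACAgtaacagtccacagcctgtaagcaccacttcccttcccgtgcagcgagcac
Ms4a6b: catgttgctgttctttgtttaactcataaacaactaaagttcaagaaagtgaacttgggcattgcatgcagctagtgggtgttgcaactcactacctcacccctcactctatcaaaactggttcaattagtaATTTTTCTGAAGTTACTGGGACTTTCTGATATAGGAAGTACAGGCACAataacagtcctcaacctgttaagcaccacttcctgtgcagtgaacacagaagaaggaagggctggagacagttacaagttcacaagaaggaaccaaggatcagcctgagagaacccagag

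Ms4a7, expressed by macrophages, was dimmer. It was at 4.44 in full-length animal 1 and at 4.97, 4.39 and 4.75 in full-length animal 2, near the array medians of 4.71 to 4.78. In truncated mice it was at 5.43 in animal 1 and at 6.09, 5.59 and 5.78 in animal 2. The genotypes did not overlap, with 0.46 between the nearest arrays. The means were 4.57 ± 0.19 and 5.63 ± 0.28 (log2, SD, n = 2 animals each), 2.08-fold apart. The difference was 1.06 in the arrays numbered 1 and 1.11 in arrays 2 and 3, so both sets of arrays gave close values. The other probe set, 1445365_at, was dim, between 2.15 and 2.39 in full-length and between 2.40 and 2.64 in truncated arrays.

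Ms4a4b and Ms4a4c showed another pattern. Ms4a4b was at 5.98 in full-length animal 1 and at 5.04, 5.04 and 5.14 in full-length animal 2. It was at 4.92 in truncated animal 1 and at 4.85, 7.05 and 7.21 in truncated animal 2. The truncated arrays numbered 1 were the lowest of all 8 and truncated arrays 2 and 3 the highest. The animal means were 5.53 ± 0.64 and 5.64 ± 1.02 (log2, SD, n = 2 animals each), 0.12 apart. That value joins opposite directions, -0.63 in the arrays numbered 1 and 2.04 (4.11-fold) in arrays 2 and 3. Its second probe set, 1425325_at, was dim, between 2.96 and 3.45.

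Ms4a4c was at 5.92 in full-length animal 1 and at 5.87, 5.50 and 5.42 in full-length animal 2 by probe set 1420671_x_at. It was at 6.14 in truncated animal 1 and at 6.16, 8.11 and 7.99 in truncated animal 2. The genotypes did not overlap, but only by 0.22, and truncated arrays 2 and 3 lay nearly 2 log2 units above the other truncated arrays (mean step 1.90). The means were 5.76 ± 0.23 and 6.78 ± 0.91 (log2, SD, n = 2 animals each), 2.03-fold apart, with 0.26 in the arrays numbered 1 and 2.59 (6.03-fold) in arrays 2 and 3. The probe set 1450291_s_at moved further, from 2.97 to 4.07 in full-length arrays, 4.33 and 4.92 in the truncated arrays numbered 1, and 7.88 and 7.66 in truncated arrays 2 and 3. Its difference in arrays 2 and 3 was 4.77 (27.3-fold). Both identifiers mark probe sets that can match related sequences.

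**Figure D2:**
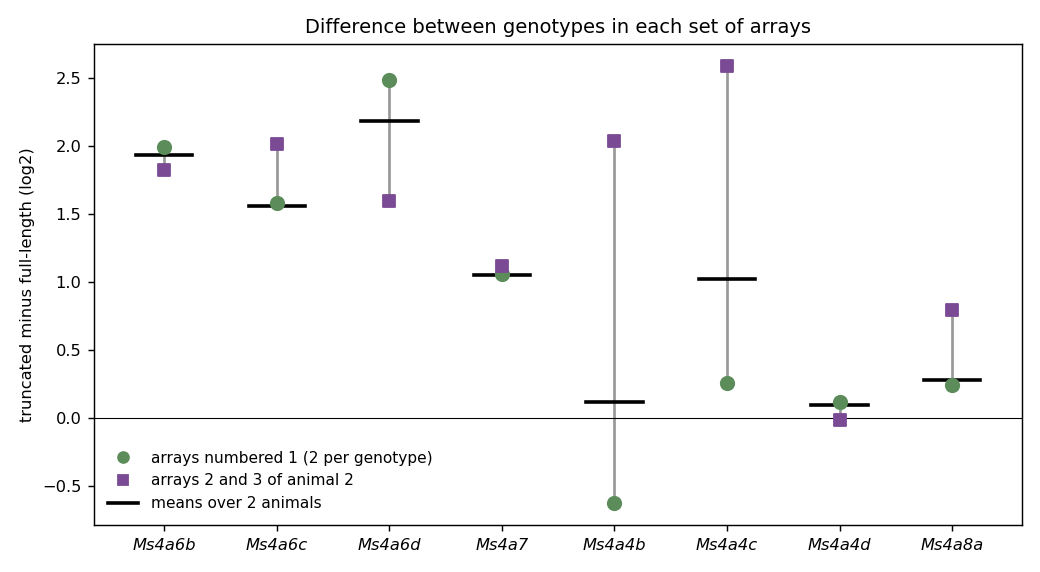
Truncated minus full-length log2 difference (vertical axis) of the 8 genes, over the arrays numbered 1 (circles), arrays 2 and 3 of animal 2 (squares) and the animal means (bars). The symbols lie close together for Ms4a7 (1.06 and 1.11) and far apart for Ms4a4b (-0.63 and 2.04) and Ms4a4c (0.26 and 2.59).

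Over the 8 arrays Ms4a4b and Ms4a4c had a Pearson r of 0.89, higher than that of Ms4a4b with any of the other 6 genes (-0.14 to 0.60). For Ms4a4c the range over the other 6 was 0.034 to 0.84, the highest with Ms4a6c. Its probe set can match related sequences, and whether that raises these values was not tested. Ms4a4b and Ms4a4c are neighbours on the chromosome, and their promoter windows are shown because they were the other similar pair. The local alignment held 159 identical bases in 178 columns (89.3%) and ran from 128 bases before to 49 after the start of Ms4a4c. The capitals mark the longest identical run, 20 bases, which begins 38 bases before the start of Ms4a4c and 41 before that of Ms4a4b. The windows are chr19:11407411-11407710 and chr19:11443308-11443607 in GRCm38.p6, both on the plus strand.
Ms4a4c: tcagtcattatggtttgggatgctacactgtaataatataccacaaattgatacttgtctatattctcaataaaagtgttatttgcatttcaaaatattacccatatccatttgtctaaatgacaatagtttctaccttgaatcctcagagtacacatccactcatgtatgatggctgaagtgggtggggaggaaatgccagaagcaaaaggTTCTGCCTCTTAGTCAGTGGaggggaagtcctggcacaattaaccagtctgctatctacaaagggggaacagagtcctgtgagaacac
Ms4a4b: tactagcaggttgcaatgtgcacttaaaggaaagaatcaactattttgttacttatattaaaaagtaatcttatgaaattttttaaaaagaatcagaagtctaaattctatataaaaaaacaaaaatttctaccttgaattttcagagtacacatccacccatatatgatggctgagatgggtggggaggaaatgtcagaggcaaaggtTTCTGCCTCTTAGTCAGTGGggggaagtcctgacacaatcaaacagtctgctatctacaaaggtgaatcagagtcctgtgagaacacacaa

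Short motifs were searched on both strands of the 8 windows that RefSeq gave for 7 of the genes. The RUNX letters TGTGGT were in 1 window, that of Ms4a4c (211 bases before the start), and in 16.8% of 32851 promoters. GAGGAA, a PU.1 core, was in those of Ms4a4b, Ms4a4c and Ms4a7, 3 of the 8 windows, and in 28.3% of promoters. TTNNGCAA, a C/EBP form, was in 1 window, that of Ms4a4d, and in 10.8% of promoters. TATAAA was in 1 window, that of Ms4a4b, and in 13.6% of promoters. The interferon-stimulated response element form was in 0 windows and in 3.44% of promoters. GGAAGT, an ETS core that can overlap GAGGAA by 4 letters, was looked for after the sequences were seen. It was in 6 of the 8 windows, including those of Ms4a6b and Ms4a6c, where it lies within the capitals, and in 23.8% of promoters. These matches are letters in a window and not measured binding.

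Ms4a8a, a gene of some macrophage states and of epithelia, overlapped between genotypes. It was at 5.93 in full-length animal 1 and at 5.38, 4.85 and 4.81 in full-length animal 2, and at 5.72 in truncated animal 1 and 6.06, 5.59 and 5.66 in truncated animal 2. The truncated arrays were alike, and full-length arrays 2 and 3 lay below them. The means were 5.47 ± 0.65 and 5.75 ± 0.033 (log2, SD, n = 2 animals each), with 0.24 in the arrays numbered 1 and 0.79 in arrays 2 and 3. Ms4a4d lay between 2.18 and 2.45 in all 8 arrays, below the array medians, and its means of 2.25 ± 0.041 and 2.35 ± 0.083 (log2, SD, n = 2 animals each) came from overlapping arrays. It was the only one of the 8 that did not pass the filter on low values. On the chromosome Ms4a4d lies between Ms4a6b and Ms4a6d, which had differences of 1.93 and 2.18.

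Along the cluster the genes with differences of 1 or more sat together. In the order of RefSeq, Ms4a7, Ms4a4a, Ms4a4c, Ms4a4b, Ms4a6c, Gm8369, Ms4a6b, Ms4a4d, Ms4a6d, Ms4a2 and Ms4a3 close the cluster. Ms4a4a was not analysed here, and Gm8369 was dim (3.13 and 2.85). The measured genes at the other end, from Ms4a10 to Ms4a1 and including Ms4a8a, differed by -0.16 to 0.35. Of these, Ms4a10, Ms4a18, Ms4a20, Ms4a19 and Ms4a13 were below the array medians in all arrays, so their small differences say little. The -0.05 of Ms4a1 joins -1.12 in the arrays numbered 1 with 2.17 in arrays 2 and 3 of animal 2. The 5 nearest measured genes on either side of the cluster differed by -0.14 to 0.81, and arrays of the genotypes overlapped for all 10. Among these the largest difference was that of the dim gene Oosp1 (3.07 and 3.89), named after its value was seen. In arrays 2 and 3 of animal 2 alone, Tmem109, also named after its values were seen, differed by 2.29 and Oosp1 by 1.75.

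**Figure D3:**
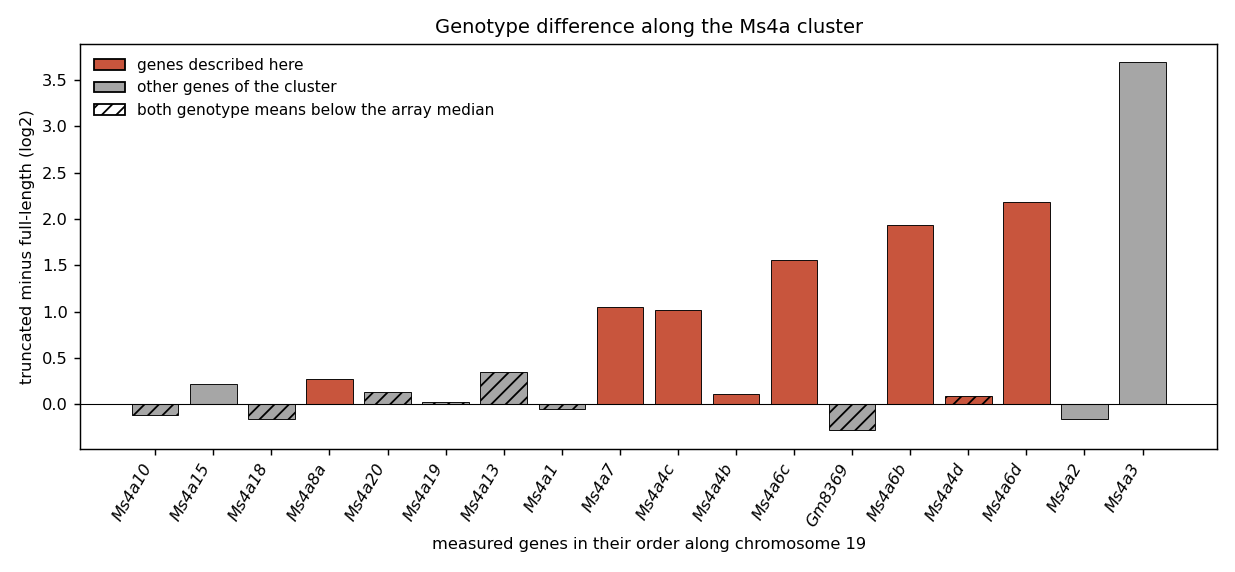
Truncated minus full-length log2 difference of animal means (vertical axis) for the measured genes of the Ms4a cluster in their order along chromosome 19. The 8 genes described here are in colour and hatching marks genes with both genotype means below the array median; differences over 1 run from Ms4a7 to Ms4a6d, with low bars between them, and Ms4a3 at the end reaches 3.69.

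Of 13 other family and related genes listed, 9 were on the array and 6 were tested. No gene was called by limma over the 11386 genes tested, with 0% higher and 0% lower at an adjusted p under 0.05. At an unadjusted p under 0.05 limma gave 8.79% higher and 5.31% lower, and of the 6 family genes 3 higher and 0 lower. With the animal and array number as a replicate block on 8 arrays, 586 genes were higher and 357 lower. Single arrays also set this count: when animal 2 of the full-length group was averaged over arrays 1 and 3, limma called 295 genes higher and 41 lower, and over arrays 1 and 2 it called 376 and 46. The block fit treats the arrays of one animal as independent, and none of these calls is used for the 8 genes.

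Ms4a3, a gene of granulocyte and monocyte progenitors, differed by more than any of the 8. It was at 4.48 in full-length animal 1 and at 4.03, 8.49 and 8.57 in full-length animal 2, and at 9.05 in truncated animal 1 and 9.20, 10.11 and 10.20 in truncated animal 2. The full-length arrays numbered 1 were far below the rest, and the genotypes did not overlap. The difference was 4.87 in the arrays numbered 1 and 1.62 in arrays 2 and 3. Its means were 5.76 ± 1.81 and 9.44 ± 0.55 (SD, n = 2 animals; limma, adjusted p = 0.161). Tmem176a and Tmem176b, related membrane proteins of myeloid cells, also did not overlap between genotypes, with differences of 1.12 (limma, adjusted p = 0.167) and 1.03 (limma, adjusted p = 0.223).

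Ms4a2, the neighbour of Ms4a6d, was bright in every array. It lay between 11.29 and 11.50 in full-length arrays, at 11.61 and 11.58 in the truncated arrays numbered 1 and at 10.60 and 10.69 in truncated arrays 2 and 3 (difference -0.16, limma, adjusted p = 0.888). Ms4a1, the B cell gene CD20, had its lowest and highest values in the same arrays as Ms4a4b: it was at 3.53 and 3.93 in the truncated arrays numbered 1, at 6.41 and 6.31 in truncated arrays 2 and 3, and between 4.12 and 4.96 in full-length arrays (difference -0.05, limma, adjusted p = 0.985). Ms4a15 differed by 0.22 (limma, adjusted p = 0.785), and Ms4a10, Ms4a13 and Ms4a18 were below the array medians in all arrays.

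Of 7 receptors and adaptors reported beside MS4A proteins, 6 were on the array. Of the 6, 3 were higher in truncated mice without overlap, beside 7.94% of all genes. All 6 had higher means in truncated animals, with a median difference of 1.46. The median was 1.98 in the arrays numbered 1 and 0.57 in arrays 2 and 3 of animal 2. None passed over all genes in limma. Of the 6, 5 were higher at an unadjusted p under 0.05, beside 8.79% of all genes tested. Tyrobp (DAP12, the adaptor of TREM2) lay between 8.72 and 9.77 in full-length and between 10.72 and 11.30 in truncated arrays, and its difference of 1.81 had an adjusted p of 0.0861 in limma. Fcer1g, the common Fc receptor gamma chain, differed by 1.74 (limma, adjusted p = 0.0825), with full-length arrays between 7.71 and 9.05 and truncated arrays between 10.02 and 10.16. For both genes all truncated arrays lay above all full-length arrays. In arrays 2 and 3 of animal 2 they differed by 0.96 and 0.99.

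Some lists of cell type markers were also higher in truncated animals and others were not. The part of any of them in the differences was not tested. In bulk spleen cells, more cells of a type and more RNA per cell cannot be told apart. Of 20 monocyte and macrophage markers 18 were on the array, all 18 with higher means in truncated animals. Of these, 12 did not overlap, beside 7.94% of all genes that were higher without overlap. Cx3cr1, named after its value was seen, differed by only 0.0029. The median difference of the list was 1.48. That median was 1.82 in the arrays numbered 1 and 0.92 in arrays 2 and 3 of animal 2. For the 8 Ms4a genes the medians in these sets of arrays were 0.66 and 1.71. The mean log2 level of the monocyte and macrophage list was 6.13 to 6.92 in full-length and 7.84 to 8.13 in truncated arrays. Its largest differences were those of Vcam1 (3.74; limma, adjusted p = 0.107) and the mannose receptor Mrc1 (2.87; limma, adjusted p = 0.0847), which were 1.96 and 1.58 in arrays 2 and 3. The mean of Ms4a6b, Ms4a6c and Ms4a6d was 6.71 to 7.48 and 8.86 to 9.23 over the same arrays. All 9 measured neutrophil genes were higher without overlap as well, beside the same 7.94% of all genes. Their median difference was 2.97, and the largest were those of Ltf (4.20, limma, adjusted p = 0.0825) and Camp (4.09, limma, adjusted p = 0.0825). The neutrophil median was 3.65 in the arrays numbered 1 and 1.62 in arrays 2 and 3, where Ltf and Camp differed by 2.62 and 2.39.

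Markers of lymphocytes and dendritic cells were set beside Ms4a4b and Ms4a4c, whose mean was 5.53 and 5.50 in the truncated arrays numbered 1 and 7.58 and 7.60 in truncated arrays 2 and 3. Of 10 T cell markers 9 were on the array, and 5 of these passed the filter on low values. The mean of all 9 stayed between 4.75 and 5.03 in all 8 arrays, near the array medians. The largest differences were 0.35 for Cd5 and -0.27 for Il7r, neither of which passed that filter. Among the 5 that passed, differences lay between -0.11 (Cd8a) and 0.18 (Cd4). The 5 measured NK cell markers had a mean of 4.54 and 4.47 in the truncated arrays numbered 1 and of 5.32 and 5.27 in truncated arrays 2 and 3. The corresponding values were 4.68 and 4.73 against 5.42 and 5.54 for 6 dendritic cell markers, and 5.47 and 5.29 against 5.88 and 6.06 for 7 B cell markers. Only 2 of the NK cell, 4 of the dendritic cell and 5 of the B cell markers passed the filter on low values. The list means include the dim genes as well. Among NK cell markers the largest differences between animals were those of Gzma (0.53) and Klrk1 (0.46), and Klrk1 did not pass the filter. Among dendritic cell markers they were those of Flt3 (0.79) and Siglech (0.23), and among B cell markers those of Cd79b (1.34) and Bank1 (1.25). In the arrays numbered 1 and in arrays 2 and 3 of animal 2, Gzma differed by 0.018 and 1.39 and Klrk1 by 0.050 and 1.06. The T cell genes gave 0.19 and 0.25 for Cd5 and -0.61 and 0.77 for Il7r. Flt3 gave 0.61 and 1.10, Siglech 0.20 and 0.37, Cd79b 1.61 and 1.18, and Bank1 1.38 and 1.08. The median differences in the arrays numbered 1 and in arrays 2 and 3 were -0.047 and 0.16 for the T cell list, 0.050 and 0.21 for the NK cell list, -0.097 and 0.47 for the dendritic cell list, and 0.34 and 1.08 for the B cell list. The 6 mast cell and basophil genes had a median difference of 0.05, which joins 1.47 in the arrays numbered 1 with -1.08 in arrays 2 and 3. Their largest differences were those of Cpa3 (3.29, with 4.79 and 0.28 in these sets of arrays) and Tpsab1 (-2.35, with -2.63 and -1.89). The erythroid list had a median of -1.09, led by Trim10 (-2.14) and Ank1 (-1.40), and the blast list one of 3.41, led by Ctsg (5.09) and Mpo (4.75). These 2 medians were -1.84 and 4.03 in the arrays numbered 1, and -0.023 and 0.88 in arrays 2 and 3 of animal 2. Of the 7 blast and early myeloid genes 6 had higher means in truncated animals, and Kit had a lower one (-0.57). Without overlap 3 of the 7 were higher, beside 7.94% of all genes. Of the 8 erythroid genes 7 had lower means, 1 of them without overlap, beside 5.88% of all genes.

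**Figure D4:**
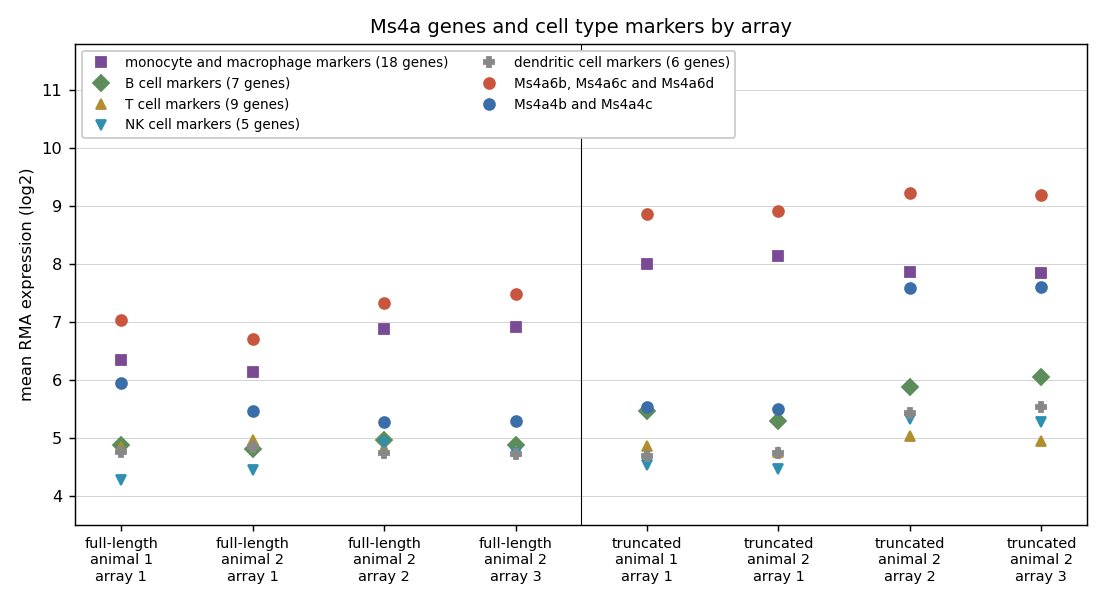
Mean log2 RMA expression (vertical axis) in each of the 8 arrays for the Ms4a6 genes, for Ms4a4b with Ms4a4c, and for 5 lists of cell type markers. The monocyte and macrophage list and the Ms4a6 genes are both higher in the 4 truncated arrays, and Ms4a4b with Ms4a4c is at 7.58 and 7.60 in the last 2 arrays and between 5.27 and 5.95 in the other 6.

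The genes whose pattern over the 8 arrays was most like the mean of the 8 centred genes were Ggh, Cdh1, Marchf1, Man1a and Ly86, each with a Pearson r of 0.99. Ggh encodes a lysosomal hydrolase of folates, with means of 4.38 ± 0.013 and 6.37 ± 0.69 in animals of the full-length and the truncated group. Cdh1, E-cadherin, was at 2.99 ± 0.0074 and 5.36 ± 0.66, and Marchf1, a ubiquitin ligase of antigen-presenting cells, at 4.58 ± 0.0011 and 6.19 ± 0.50. Man1a, a Golgi mannosidase, was at 5.29 ± 0.098 and 7.86 ± 0.65, and Ly86 (MD-1, the partner of RP105 on B cells and myeloid cells) at 6.87 ± 0.16 and 8.74 ± 0.40 (log2, SD, n = 2 animals each). The full-length SDs of Ggh, Cdh1 and Marchf1 are that small because the arrays of animal 2 averaged near the value of animal 1. Single full-length arrays ran from 4.13 to 4.54 for Ggh, 2.75 to 3.24 for Cdh1 and 4.36 to 4.72 for Marchf1. Those of Ggh and Cdh1 were all below the array medians of 4.71 to 4.78, so these genes passed the filter on low values through the truncated animals. For all 5, truncated arrays lay above all full-length arrays, as the choice by likeness favours.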

How the data were processed

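Total RNA was labelled with biotin and hybridised, per the labels' protocols. The authors deposited 1 table of 45101 probe sets and 8 arrays in log2 units, made with RMA per the submitters' processing notes, with no version. The log base was read from the values (1.79 to 14.1). RMA subtracts background, normalizes quantiles between arrays and summarises probes, which draws dim values together. The number of arrays limits the precision. Probe sets were named by the platform annotation, and of them 34945 had 1 gene, 932 several and 9160 none. Of 18194 gene identifiers 18032 were in RefSeq GRCm38.p6.

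Arrays were averaged per animal, and a gene was represented by the probe set of highest mean over the 4 animals. Genes with at least 2 of 4 animals above the median of all probe sets were tested with limma 3.58.1 in R 4.3.3 (lmFit, eBayes, Benjamini-Hochberg, threshold 0.05), after a check on simulated data. The labels do not say whether arrays of an animal were separate extractions. Genes and lists were chosen with earlier results of these data known. Named genes were the 8, the listed family genes, up to 2 per list by size of difference, and the 5 most alike in pattern. Deviations from the group mean correlated by 0.113 to 0.250 between arrays of the same animal and array number in both genotypes, so these numbers were treated as paired in an alternative fit. Arrays 2 and 3 correlated as much across numbers (0.179 and 0.197), and full-length animal 1 with array 1 of truncated animal 2 gave 0.115, so the check separates arrays 1 from arrays 2 and 3 rather than single numbers. Promoter windows were aligned with Biopython 1.88 (local, match 2, mismatch -3, gap -5 and -2). Ms4a6d had no window, and protein sequences were not used here. Alternatives were another filter, prior, probe set rule, block and array choice.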

Additional observations from a re-analysis of the deposited data

Results flagged for a closer look

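Among 98 groups of 4 arrays, from the values of 49 genes and probe sets, 1 array lay far from the other 3 of its group. Chance flags about 1 group in 20 where the 4 arrays are independent, so 1 in 98 is below that rate. The arrays are not independent, since 3 of each 4 came from 1 animal, and nothing is read from the count. The flagged array was that of full-length animal 1 for Ms4a4b, at 5.98 against 5.14 in the nearest of the other full-length arrays. The other 2 full-length arrays of Ms4a4b were both at 5.04.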

How the results depend on the processing

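The median difference of the 8 genes was 1.04 and lay between 0.66 and 1.71 in all settings tried. It moved by more than the spread between animals (0.57) only with arrays 2 and 3 of animal 2 (1.71). With the animal and array number as a replicate block it was 1.25. Between 5 and 6 of the 8 genes did not overlap between genotypes whichever array was left out. The direction turned for Ms4a4b, from 0.12 to -0.63 in the arrays numbered 1 and to -0.053 and -0.094 without array 2 or array 3 of truncated animal 2; its range without single arrays was -0.094 to 0.84. It turned for the dim Ms4a4d in arrays 2 and 3 of animal 2 (-0.018). The other 6 genes kept their direction in all 14 settings, but not their size. With the mean of all probe sets, Ms4a6b went from 1.93 to 1.31, Ms4a6c from 1.56 to 0.75, Ms4a6d from 2.18 to 1.40 and Ms4a7 from 1.05 to 0.67. Without both full-length arrays numbered 1, Ms4a6b was at 1.48 and Ms4a6d at 1.90. Ms4a4c went from 1.02 to 1.67 without truncated animal 1. Ms4a8a went from 0.28 to 0.73 without full-length animal 1, to 0.92 without both full-length arrays numbered 1 and to 0.52 with the replicate block. The call counts of limma, 0 higher and 0 lower, were 264 and 81 with the animal as a random block, 586 and 357 with the replicate block, and 1647 and 1354 with 1 array per animal. They ran from 0 to 376 higher and 0 to 46 lower without single arrays, with 295 and 41 without array 2 and 376 and 46 without array 3 of full-length animal 2. Leaving out both full-length arrays numbered 1, tried after the data were seen, gave a median of 1.19 and 0 calls. With 2 animals per genotype and dim values for Ms4a7 and Ms4a4d, small differences could not be resolved.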
